A study of Mus musculus with 8 samples.

Results

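Tumor-associated macrophages (TAMs) from mice given thiostrepton beside the tumor were compared directly with TAMs from mice given the same compound by intraperitoneal (I.P.) injection. The comparison used 6 of the 8 mice of the series, 2 dosed by paratumor subcutaneous (S.C.) injection, which the sample labels call IS, and 4 dosed by I.P. The other 2 mice received DMSO, the vehicle, and serve here as reference levels. They entered no fit except 1 alternative, in which all 3 groups were fitted together. All mice were male C57BL/6 animals aged 8 to 10 weeks at inoculation per the study's methods, carrying subcutaneous B16F10 tumors, a melanoma line of the same mouse strain. Doses fell on days 6 and 12 of tumor growth. On day 18 the CD45+F4/80+CD11b+Gr-1- cells of each tumor were sorted and sequenced as 1 library per mouse. The S.C. dose was 20 mg/kg. How much the 4 I.P. mice received, and how the DMSO mice were injected, is not given in the sources used here. Since higher I.P. than S.C. doses were tested in the study, route and dose cannot be told apart.

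Thiostrepton is a natural thiopeptide antibiotic that blocks bacterial ribosomes and, in mammalian cells, inhibits the proteasome and the transcription factor FOXM1. Macrophages in a tumor come largely from blood monocytes that enter through the chemokine receptor CCR2, and they range from cells that present antigen on MHC class II and secrete inflammatory cytokines to cells that carry scavenger receptors such as CD163 and LYVE-1. An I.P. dose reaches a tumor under the skin through the circulation, whereas a paratumor dose is deposited next to it.

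The libraries held 14127506 to 17577466 gene counts per mouse. Levels are given as CPM, read counts relative to library size, scaled by the TMM method, on which 3 counts, taken as the floor of detection for counting error only, equal 0.169 to 0.218 CPM. All 12 listed TAM markers, such as Adgre1 and Csf1r, were detected in every library, and 0 of 12 were called in the comparison. The libraries did not resemble each other equally. Over the 7937 genes averaging 10 CPM or more, Pearson's r of log2 CPM between the 2 S.C. mice was 0.787, below the 0.814 to 0.87 between either S.C. mouse and I.P. mice 2 to 4. I.P. mouse 1 correlated with the other 7 mice at 0.792 to 0.88, whereas I.P. mice 2 to 4 correlated with each other at 0.926 to 0.96. Zero counts were found for 49 genes in S.C. mouse 1 and for 34 in S.C. mouse 2 out of 9328 genes averaging 5 CPM or more, and for 1 to 12 of these genes in each other library. Label numbers place I.P. mouse 1 directly before the S.C. mice and I.P. mice 2 to 4 last, so for those 3 I.P. mice the order of the labels and the route cannot be told apart.

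Both routes were compared over 12206 genes with edgeR's quasi-likelihood test, and a log2 difference is given as S.C. over I.P. throughout. A gene was called at an unadjusted P under 0.05 with at least a 2-fold difference, the criterion of the study's methods. By it 294 genes (2.41%) were called higher and 566 (4.64%) lower in S.C. mice. Both S.C. mice lay above all 4 I.P. mice for 8.05% of the genes tested and below them for 10.5%, and this held for 249 of the higher and 504 of the lower calls. After Benjamini-Hochberg adjustment 0 genes had an adjusted p under 0.05, where 1049 genes (8.59%) had an unadjusted P under 0.05. The smallest adjusted p was 0.205, while edgeR's likelihood ratio test gave 265 genes and DESeq2 234 genes under 0.05. Every call below is therefore an unadjusted one.

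The lower calls lay mostly at low levels. In 369 of the 566 at least 1 S.C. mouse had fewer than 8 counts, and in 171 both S.C. mice had 0. Of all 12206 genes tested, 2001 had fewer than 8 counts in an S.C. mouse, and lower calls are low in S.C. mice by selection. Of the 294 higher calls, 76 had fewer than 8 counts in an I.P. mouse. With at least 8 counts required in all 6 mice, the calls numbered 268 higher and 258 lower. Leaving out 1 S.C. mouse, which assumes that the remaining one varies as the I.P. mice do, raised the counts to 727 higher and 1276 lower without S.C. mouse 1 and to 689 and 1426 without S.C. mouse 2. Leaving out I.P. mouse 2 lowered the higher calls to 194. In each of the 6 fits that left out 1 mouse, 66 of the higher and 253 of the lower calls held, and with a mean of at least 10 CPM these were 30 and 58 genes. In 262 of the 294 higher and 512 of the 566 lower genes, the mean log2 CPM of the DMSO mice lay nearer to the I.P. mice than to the S.C. mice. These genes were picked by the same S.C. and I.P. values, and the share over all genes was not counted. The 2 counts therefore do not show what either route did relative to DMSO.

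**Figure D1:**
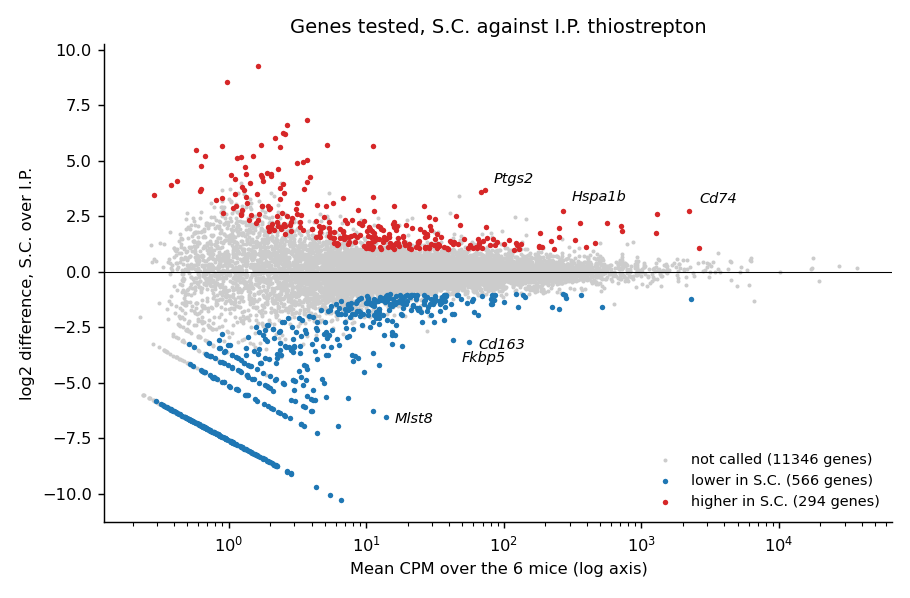
Each point is 1 of the 12206 genes tested, with its mean CPM over the 2 S.C. and 4 I.P. mice on a log axis and its fitted log2 difference, S.C. over I.P., on the vertical axis, and red and blue mark the 294 higher and 566 lower calls. The diagonal lines of blue points at the lower left are genes with 0 or few counts in both S.C. mice, for which the fitted difference is set by the prior count and gives no bound.

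Among 37 pathway lists, MHC class II had the largest median difference. Its members load peptides of engulfed proteins onto surface molecules shown to CD4 T cells. Of 13 genes listed, 12 passed the filter on low counts and 7 of these were called higher and 0 lower, against 2.41% and 4.64% of all genes. Every list count below is to be read against these 2 shares, and no list was tested as a set. The median log2 difference of the 12 was 2.21, against 0.02 over all genes tested. Cd74, the invariant chain that guides class II molecules to the endosome, was at 6198 and 4033 CPM in S.C. mice 1 and 2, at 691, 253, 1630 and 463 CPM in I.P. mice 1 to 4 and at 3851 and 762 CPM in DMSO mice 1 and 2. Both S.C. mice lay above all I.P. mice, I.P. mouse 3 was the highest of its group, and the 2 DMSO mice stood apart from each other, 1 near the S.C. mice and 1 among the I.P. mice. Cd74 was 6.74-fold higher in S.C. mice (log2 difference 2.75, standard error 0.61, adjusted p = 0.273).

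The chains of the class II molecules themselves differed in the same way. H2-Ab1, the beta chain of I-A (chromosome 17 from 34257689 to 34269419 on GRCm38), was at 3138 and 2688 CPM in S.C. mice and at 520.2, 144, 976 and 265 CPM in I.P. mice (log2 difference 2.61, standard error 0.62, adjusted p = 0.277). H2-Aa, its alpha chain, was at 1203 and 1172 CPM against 219, 57.1, 632 and 111 CPM (log2 difference 2.22, adjusted p = 0.467). H2-Eb1, the beta chain of I-E, was at 805 and 701 CPM against 115, 35.9, 431 and 70.1 CPM (log2 difference 2.21, adjusted p = 0.492). In all 3 genes the S.C. mice did not overlap the I.P. mice, and I.P. mouse 3 was the nearest to them. H2-DMb1 and H2-DMa, the chains of the chaperone that exchanges the invariant chain peptide, were higher by 2.61-fold and 2.16-fold (adjusted p = 0.295 and adjusted p = 0.532). H2-DMb1 lay at 402 and 339.6 CPM in S.C. mice against 169.6, 96.4, 202 and 100.2 CPM in I.P. mice. Ciita, the coactivator required for class II transcription, was low in all libraries, at 22.7 and 17.6 CPM in S.C. mice and at 4.27, 0.669, 5.81 and 0.875 CPM in I.P. mice (log2 difference 2.79, standard error 0.83, adjusted p = 0.396), with 8.55 and 1.95 CPM in the DMSO mice. The 5 tested members that were not called were Ctss, Ifi30, H2-DMb2, H2-Oa and H2-Ob. The calls of Cd74, H2-Ab1, H2-DMb1 and Ciita held in each fit that left out 1 mouse. The criterion was no longer met for H2-Aa without S.C. mouse 1 (2.2) or I.P. mouse 1 (2.15), for H2-Eb1 in 4 of the 6 fits, those without S.C. mouse 1, S.C. mouse 2, I.P. mouse 1 or I.P. mouse 4 (1.95 to 2.30) and for H2-DMa in 5 of the 6 fits, those without S.C. mouse 1, S.C. mouse 2, I.P. mouse 1, I.P. mouse 2 or I.P. mouse 4 (0.91 to 1.23). Without I.P. mouse 3 H2-Eb1 was at 3.33. The called members numbered 4 to 7 over these fits, with 4 without S.C. mouse 1 or I.P. mouse 1.

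**Figure D2:**
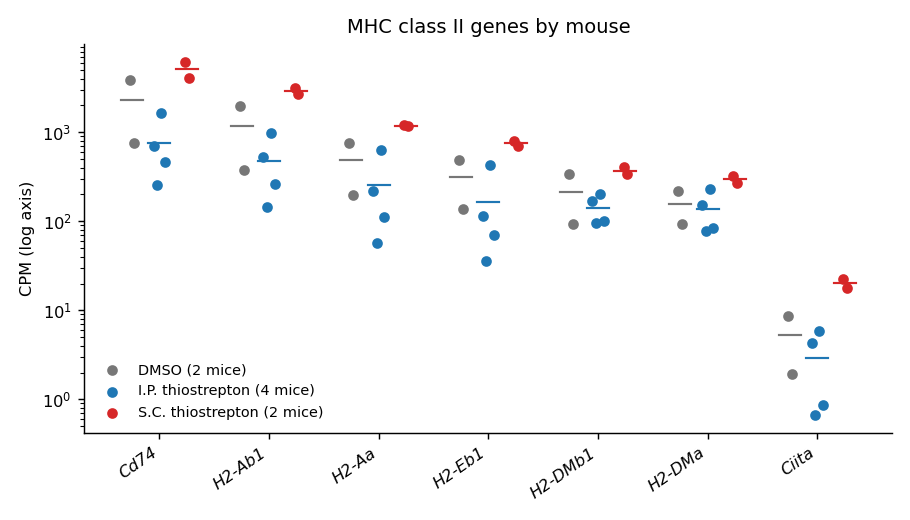
CPM of the 7 called MHC class II genes on a log axis, with 1 point per mouse and a line at each group mean, for DMSO (grey), I.P. (blue) and S.C. (red) mice. In every gene both S.C. mice lie above all 4 I.P. mice, and DMSO mouse 1 lies above DMSO mouse 2.

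Because these genes differed in the same direction and CIITA acts at a shared promoter element, the 120 bases before the start site were read from RefSeq (GRCm38.p6) for the called genes with an entry on chromosome 17. An X box, bound by the RFX complex, and a Y box, bound by NF-Y, together recruit CIITA. Capitals mark the letters TGATTGG of the Y box core and ACNGATG of the X box core, which were searched on both strands.
H2-Aa (chr17:34287824-34287943, - strand): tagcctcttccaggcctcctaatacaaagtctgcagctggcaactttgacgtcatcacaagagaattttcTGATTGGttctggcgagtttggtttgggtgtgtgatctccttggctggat
H2-Eb1 (chr17:34305747-34305866, + strand): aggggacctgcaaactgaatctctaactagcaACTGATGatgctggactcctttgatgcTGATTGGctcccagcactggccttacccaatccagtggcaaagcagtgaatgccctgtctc
H2-DMb1 (chr17:34153071-34153190, + strand): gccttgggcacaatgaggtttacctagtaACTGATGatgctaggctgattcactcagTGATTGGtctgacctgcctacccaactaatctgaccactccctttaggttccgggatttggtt
The Y box core began 50, 61 and 63 bases before the start of H2-Aa, H2-Eb1 and H2-DMb1, and the X box core stood 88 and 91 bases before the start of the last 2 genes. Neither run of letters was in either window of H2-DMa. Of the 11 windows found for 10 genes of the list, 7 held the Y box core and 3 both cores, while among all 32851 promoters of that length 5.15% held the Y box core, 3.89% the X box core and 0.189% both. One of the windows with both, that of H2-DMb2, belongs to a gene that was not called, at a log2 difference of 0.69. The Y box core was also in the windows of H2-Oa and H2-Ob, which were not called, and of H2-Eb2, which was not tested. The core letters thus do not separate called from uncalled genes of the list. A match of letters is a description of the sequence and is not a measurement of binding.

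B cells and dendritic cells also carry MHC class II, and bulk libraries cannot tell more cells of a type from more RNA per cell. Of 11 B cell markers 4 were tested and 2 called higher. A marker near 0 in I.P. mice can pass the filter only through the S.C. mice, which favors higher calls. With 8 counts required in every mouse, 2 B cell markers were tested and 0 called. Cd79a, a chain of the B cell receptor, had 133 and 29 counts in S.C. mice and 17, 0, 0 and 0 in I.P. mice (adjusted p = 0.551), with no call left for Cd79a in 4 of the 6 fits, those without S.C. mouse 1, I.P. mouse 2, I.P. mouse 3 or I.P. mouse 4 (2.95 to 3.92). Cd79b, its partner, was not called, at 14.7 and 19.7 CPM against 11.2, 10.2, 20.7 and 8.81 CPM. The summed level of the B cell markers was 71.1 and 90.3 CPM in S.C. mice and 51.9 to 79.4 CPM in I.P. mice, ranges that overlap, with 4 to 9 of the 11 markers at 0 in a library. On the log scale, where the 4 tested markers weigh equally, their mean log2 CPM was 3.70 and 3.33 in S.C. mice and 0.769 to 1.52 in I.P. mice, without overlap, and their median log2 difference was 2.38. Of 16 dendritic cell markers 8 were tested, 1 was called higher, Ccr7, and their sum was 396 and 269 CPM against 242 to 389 CPM. With 8 counts required in every mouse, 3 dendritic cell markers were tested and 0 called. What part these cells have in the MHC class II difference was not tested.

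Ccr2, Mgl2 and Ppbp were higher in S.C. than in I.P. mice. Ccr2, the receptor for CCL2 (chromosome 9 from 124101950 to 124113557), was at 60.7 and 76.7 CPM in S.C. mice, 12.7, 7.3, 13.1 and 20.1 CPM in I.P. mice and 59.9 and 79.2 CPM in DMSO mice. The S.C. and DMSO mice shared 1 range, and all 4 I.P. mice lay below it. The routes differed 5.17-fold (log2 difference 2.37, standard error 0.40, adjusted p = 0.205). Mgl2, a galactose-binding lectin of macrophages and dendritic cells, likewise was lowest in the I.P. mice, with 34.2 and 30 CPM in S.C., 5.03, 11.2, 8.01 and 10.7 CPM in I.P. and 49.7 and 39.6 CPM in DMSO mice (log2 difference 1.87, adjusted p = 0.273). Ppbp, the precursor of the neutrophil-attracting chemokine CXCL7 and a product of platelets as well, was at 49.4 and 69 CPM, 19.1, 12.8, 13.5 and 11.7 CPM and 37.9 and 123 CPM in the same groups (log2 difference 2.05, adjusted p = 0.205). In these 3 genes the I.P. mice were the group that stood below both others.

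In other genes the S.C. mice stood above both the I.P. and the DMSO mice. Itgax, the integrin CD11c of dendritic cells and some macrophages (chromosome 7 from 128129547 to 128150657), was at 71.9 and 125 CPM in S.C. mice, 22.7, 20.4, 30.4 and 19 CPM in I.P. mice and 23.2 and 13.1 CPM in DMSO mice. The difference between routes was 4.25-fold (log2 difference 2.09, standard error 0.33, adjusted p = 0.205). Mfge8, a bridge for the uptake of apoptotic cells, was at 66.6 and 49.3 CPM against 17.6, 17.6, 7.9 and 19.4 CPM in I.P. and 10.4 and 12.5 CPM in DMSO mice (log2 difference 1.89, adjusted p = 0.268). Cd83, which stabilises MHC class II and CD86 at the surface of activated cells, was at 1089 and 1717 CPM against 566, 242, 215 and 523 CPM (log2 difference 1.86, adjusted p = 0.273). Each of these 3 genes kept its call whichever mouse was left out. Prdm1, encoding the repressor BLIMP-1, was at 28 and 97.8 CPM in S.C. mice and 7.18 to 14.6 CPM in I.P. mice, and S.C. mouse 2 set most of its difference (2.49 with that mouse, 1.32 without it). Clec7a, the beta-glucan receptor Dectin-1, lay at 627 and 889 CPM against 323, 237, 443 and 231 CPM (log2 difference 1.30, adjusted p = 0.295). Of 10 chemokine receptors tested 3 were called higher and 0 lower, Ccr2, Ccr7 and Ccrl2, with a median log2 difference of 1.25. Ccr7, which directs dendritic cells to lymph nodes, was at 11.6 and 3.28 CPM against 0.282 to 2.16 CPM, and Ccrl2, a chemerin-binding receptor, at 384 and 509.7 CPM against 59.7 to 303 CPM. Leaving out 1 mouse ended the call for Ccr7 without S.C. mouse 1 (1.37) or I.P. mouse 2 (2.49) and for Ccrl2 without S.C. mouse 2 (1.34) or I.P. mouse 3 (1.33). Of the 12 monocyte markers tested 2 were called higher, Ccr2 among them, and 0 lower, with a median of 0.51.

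**Figure D3:**
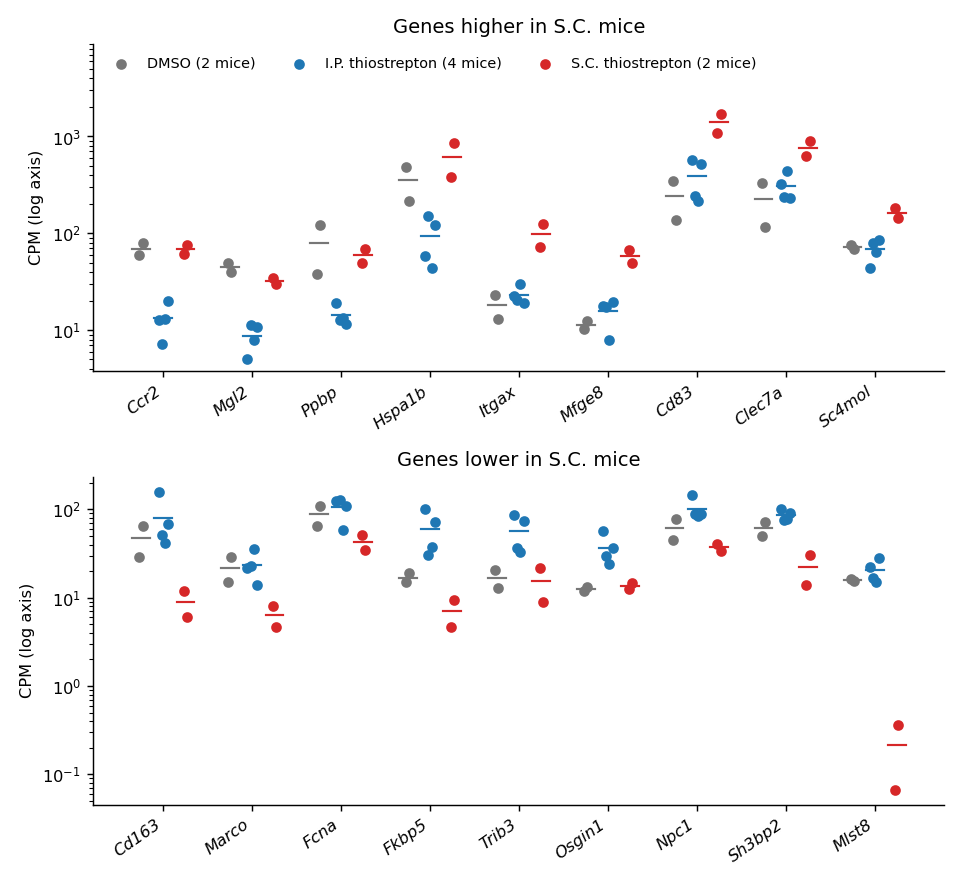
CPM of 9 genes called higher (top) and 9 called lower (bottom) in S.C. than in I.P. mice, on log axes, with 1 point per mouse and a line at each group mean. For Ccr2, Mgl2, Ppbp and Hspa1b the DMSO mice (grey) lie with or near the S.C. mice (red), for Itgax, Mfge8 and Cd163 they lie with or near the I.P. mice (blue), and for Fkbp5, Trib3 and Osgin1 they lie below the I.P. mice.

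The inflammatory cytokines Tnf and Il1b were not called between the routes. Tnf was at 125 and 117 CPM in S.C. mice and at 220.4, 26.3, 54 and 96.1 CPM in I.P. mice (log2 difference 0.29, standard error 0.69, adjusted p = 0.954). Il1b was at 252 and 381 CPM in S.C. mice and at 228, 5.05, 7.73 and 0.992 CPM in I.P. mice (log2 difference 2.39, standard error 1.57, adjusted p = 0.76). Both S.C. mice were above all I.P. mice for Il1b, but I.P. mouse 1 lay just under them and far above I.P. mice 2 to 4, which were as low as the DMSO mice at 6.92 and 8.96 CPM. Cxcl1 and Cxcl2, chemokines that attract neutrophils, had the same layout. Cxcl1 was at 108 and 150.0 CPM in S.C. mice, 154 CPM in I.P. mouse 1 and 2.1 to 2.77 CPM in I.P. mice 2 to 4 (adjusted p = 0.846). Cxcl2 was at 449.5 and 473 CPM, 608 CPM and 16.2 to 24 CPM in the same mice (adjusted p = 0.843). I.P. mouse 1 thus exceeded both S.C. mice for Cxcl1 and Cxcl2 and for Tnf. Without it the log2 differences were 6.10 for Il1b, 5.76 for Cxcl1 and 4.47 for Cxcl2, which then met the criterion, and Tnf stayed uncalled at 1.05. The mean log2 CPM of the 17 neutrophil markers tested had a similar layout, at 2.0 and 4.35 in S.C. mice, 2.28 in I.P. mouse 1 and 0.394 to 0.838 in I.P. mice 2 to 4, and its part in these differences was not tested.

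Of 21 cytokine genes tested, 3 were called higher and 0 lower, with a median log2 difference of 0.85. Il10, an inhibitory cytokine of macrophages, was at 19.8 and 31 CPM in S.C. mice and 13, 5.35, 6.66 and 2.92 CPM in I.P. mice (log2 difference 1.87, adjusted p = 0.398). Osm and Lif are related cytokines that signal through gp130. Osm was at 106 and 186 CPM against 109, 35.5, 32.3 and 34.6 CPM (log2 difference 1.47, adjusted p = 0.492), with I.P. mouse 1 above S.C. mouse 1, and Lif was at 6.26 and 2.11 CPM against 0.169 to 1.02 CPM (log2 difference 2.95, adjusted p = 0.44). No call remained for Il10 without S.C. mouse 2 (1.50), for Lif without S.C. mouse 1 (1.97) and for Osm in 4 of the 6 fits, those without S.C. mouse 2, I.P. mouse 2, I.P. mouse 3 or I.P. mouse 4 (1.0 to 1.31). None of 11 CC chemokines was called, while the 6 CXC chemokines for neutrophils gave the single call of Ppbp and, without I.P. mouse 1, 4 calls.

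Genes induced through NF-kB and by immediate early signals were higher in part, and the 2 S.C. mice differed among themselves. In the list of NF-kB subunits and feedback inhibitors 5 of 23 genes were called higher and 0 lower, with a median of 0.72. Tnfaip3, which encodes the ubiquitin-editing inhibitor A20, was at 120.3 and 568 CPM in S.C. mice and 174, 49.8, 57.5 and 129.5 CPM in I.P. mice (log2 difference 1.75, adjusted p = 0.497). Rel, an NF-kB subunit, was at 17.9 and 78.7 CPM against 10.3, 7.84, 11 and 22.2 CPM (log2 difference 1.91, adjusted p = 0.412). For both, S.C. mouse 2 was far above all others and S.C. mouse 1 lay inside the I.P. range. Nfkb2 and Nfkbie, a subunit and an inhibitor, were at 22.9 and 48.3 and at 26.8 and 40.3 CPM in S.C. mice, against 13.9 to 19.3 and 9.06 to 22.6 CPM in I.P. mice. The call ended for Tnfaip3 in 3 of the 6 fits, those without S.C. mouse 2, I.P. mouse 2 or I.P. mouse 3 (0.23 to 1.52), for Rel without S.C. mouse 2 (0.47), for Nfkb2 in 3 of the 6 fits, those without S.C. mouse 2, I.P. mouse 2 or I.P. mouse 3 (0.47 to 1.05) and for Nfkbie without S.C. mouse 2 (0.93). The list had 1 call without S.C. mouse 2 and 10 without I.P. mouse 1.

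Among 28 immediate early genes 4 were called higher and 0 lower, with a median of 0.93, and without I.P. mouse 1 the call was made for 18 genes and the median was 2.16. Dusp1, a phosphatase that switches off p38 and JNK, was at 2326 and 2517 CPM in S.C. mice, 1716 CPM in I.P. mouse 1 and 245 to 581 CPM in I.P. mice 2 to 4 (log2 difference 1.76, adjusted p = 0.528, and 2.67 without I.P. mouse 1). Zfp36, which degrades cytokine mRNAs, was at 555 and 587 CPM, 463 CPM and 115 to 136 CPM in the same mice (log2 difference 1.45, adjusted p = 0.527, and 2.2 without I.P. mouse 1). In both genes the S.C. mice were the highest, I.P. mouse 1 came next, and the other I.P. mice lay in the range of the DMSO mice or close to it. Egr2, a transcription factor, was at 84.8 and 288 CPM against 100.4, 48.8, 41 and 87.5 CPM, so that only S.C. mouse 2 was above I.P. mouse 1. Calls were lost for Dusp1 in 4 of the 6 fits, those without S.C. mouse 1, S.C. mouse 2, I.P. mouse 2 or I.P. mouse 4 (1.52 to 1.82), for Zfp36 in 5 of the 6 fits, those without S.C. mouse 1, S.C. mouse 2, I.P. mouse 2, I.P. mouse 3 or I.P. mouse 4 (1.24 to 1.49) and for Egr2 in 3 of the 6 fits, those without S.C. mouse 2, I.P. mouse 2 or I.P. mouse 3 (0.28 to 1.29).

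**Figure D4:**
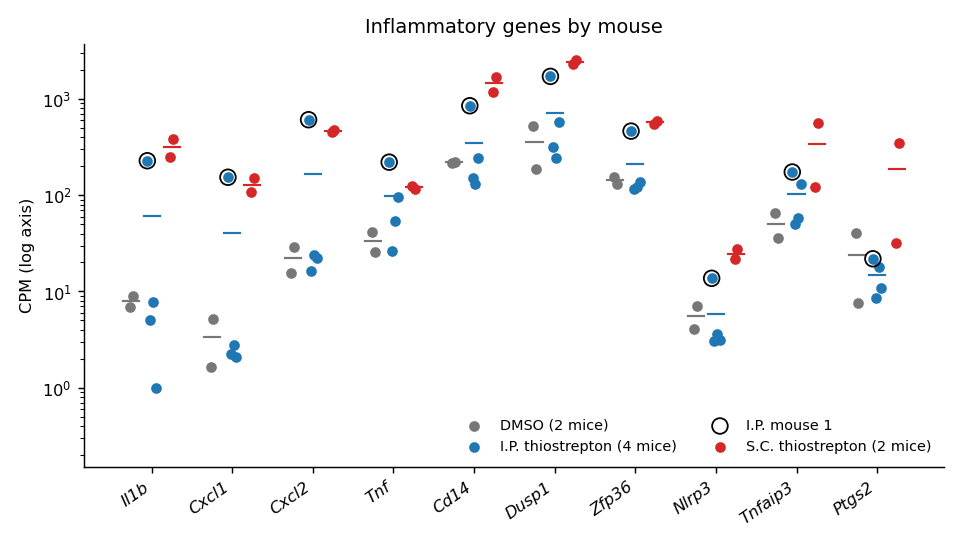
CPM of 10 inflammatory and feedback genes on a log axis, with 1 point per mouse, a line at each group mean and a black ring around I.P. mouse 1. For Il1b, Cxcl1, Cxcl2 and Tnf the ringed mouse lies near or above the S.C. mice and apart from I.P. mice 2 to 4, and for Tnfaip3 and Ptgs2 S.C. mouse 2 alone is far above the rest.

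Receptors and effectors of the lipopolysaccharide response added to these calls. Of 29 pattern recognition genes 5 were called higher and 1 lower, with a median of 0.27. Cd14, the coreceptor that hands lipopolysaccharide to TLR4, was at 1192 and 1710 CPM in S.C. mice and 850.2, 153, 130.5 and 245 CPM in I.P. mice (log2 difference 2.08, adjusted p = 0.449). Nlrp3, the sensor of the inflammasome that matures IL-1 beta, was at 21.7 and 27.4 CPM against 13.7, 3.04, 3.61 and 3.15 CPM (log2 difference 2.07, adjusted p = 0.428). In both genes the S.C. mice were above all I.P. mice and I.P. mouse 1 was the nearest to them. Tlr3, a receptor of double-stranded RNA, was at 17.2 and 23.8 CPM against 4.52 to 8.28 CPM (log2 difference 1.56, adjusted p = 0.346), with no I.P. mouse standing apart. Of 26 effector genes inducible by lipopolysaccharide 5 were called higher and 1, Saa3, lower. Ptgs2, the inducible cyclooxygenase COX-2 (chromosome 1 from 150100031 to 150108227), was at 31.6 and 346 CPM in S.C. mice and 21.9, 8.51, 17.9 and 10.7 CPM in I.P. mice (log2 difference 3.68, standard error 0.76, adjusted p = 0.268). Its difference rested on S.C. mouse 2. Ptger4, a receptor for the prostaglandin E2 made downstream of COX-2, was at 36.8 and 73.2 CPM against 10.5 to 30 CPM. Cd69, an early activation marker, was at 16.8 and 26.1 CPM against 2.31 to 8.47 CPM (log2 difference 1.74, adjusted p = 0.412). The criterion was no longer met for Cd14 without S.C. mouse 2 (1.79), for Ptgs2 without S.C. mouse 2 (1.10), for Ptger4 without S.C. mouse 2 (0.91) and for Cd69 without S.C. mouse 2 (1.39). Serpinb2, the plasminogen activator inhibitor PAI-2, had 55 and 137 counts in S.C. mice, 1, 3, 5 and 0 in I.P. mice and 14 and 16 in DMSO mice (adjusted p = 0.268).

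The markers of macrophage state that the study followed were divided. Cd80, a costimulatory ligand for CD28, was called higher, at 6.26 and 13 CPM in S.C. mice and 2.68 to 3.56 CPM in I.P. mice (log2 difference 1.61, adjusted p = 0.481). Cd86, its companion ligand, was not called, at 90.6 and 209 CPM against 49.7 to 122 CPM (log2 difference 0.81, adjusted p = 0.664), and without S.C. mouse 1 it was at 1.29. Vegfa, the angiogenic growth factor, was called higher, at 106 and 112 CPM against 78.6, 28.2, 24.8 and 47.1 CPM (log2 difference 1.28, adjusted p = 0.484). Leaving out 1 mouse ended the call for Cd80 in 3 of the 6 fits, those without S.C. mouse 2, I.P. mouse 2 or I.P. mouse 3 (0.98 to 1.59) and for Vegfa without S.C. mouse 1 (1.32) or S.C. mouse 2 (1.24). Arg1, Nos2, Chi3l3, Tgfb1, Ccl5 and Ccl24 were not called, with adjusted p = 0.72 for Tgfb1 and no lower for the other 5, and the groups overlapped in all 6. Arg1, the arginase of alternatively activated macrophages, was at 291 and 718 CPM in S.C. mice and 357, 199, 836 and 168 CPM in I.P. mice. Nos2, the inducible nitric oxide synthase, was at 9.95 and 16.8 CPM against 7.07, 1.89, 14.6 and 4.08 CPM. Tgfb1 was at 109.7 CPM in S.C. mouse 1 and 8.44 CPM in S.C. mouse 2, on either side of all I.P. mice. Retnla had 5 to 103 counts in the thiostrepton libraries, with 103 in I.P. mouse 1, and did not pass the filter. Foxm1, which thiostrepton inhibits as a protein, was at 13.6 and 7.13 CPM against 7.33, 13.9, 14.9 and 15.3 CPM (log2 difference -0.31, adjusted p = 0.917).

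Some heat shock genes were higher in S.C. mice, with 6 of 24 called higher and 0 lower and a median log2 difference of 0.46. Hspa1b and Hspa1a encode the inducible HSP70 that refolds damaged proteins, and as near-identical neighbours on chromosome 17 they may exchange reads. Hspa1b was at 377 and 855 CPM in S.C. mice, 58, 150.1, 44.4 and 121 CPM in I.P. mice and 485 and 217 CPM in DMSO mice (log2 difference 2.72, standard error 0.52, adjusted p = 0.252). Hspa1a was at 293 and 704 CPM, 114, 171, 60.9 and 157 CPM and 374 and 222 CPM in the same groups (log2 difference 1.99, adjusted p = 0.273), and at 1.22 without S.C. mouse 2. For both genes all 4 I.P. mice lay below all other mice, the DMSO mice included. Dnaja1, a cochaperone of HSP70, was at 349 and 352 CPM against 140.2 to 211 CPM (log2 difference 1.02, adjusted p = 0.282). Hspb1, a small heat shock protein, was at 16.6 and 11.4 CPM against 2.37 to 5.73 CPM, and Hsph1, the exchange factor HSP105, at 38.1 and 71.4 CPM against 11.1 to 32.7 CPM. Hspa4l was the other call. Dnaja1 without I.P. mouse 3 (0.98) or I.P. mouse 4 (0.93), Hspb1 without S.C. mouse 1 (1.29) and Hsph1 in 3 of the 6 fits, those without S.C. mouse 2, I.P. mouse 1 or I.P. mouse 3 (0.69 to 1.09) no longer met the criterion. Genes of the endoplasmic reticulum chaperones, a separate folding system, gave 0 higher and 1 lower call of 23, and the 48 proteasome genes gave 0 in either direction, with a median of 0.15.

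Of 31 genes of sterol synthesis and of LXR, the nuclear receptor of oxidised sterols, 4 were called higher and 1 lower. Sc4mol, which demethylates sterols after lanosterol, was at 182 and 144 CPM in S.C. mice and 43.8, 79.4, 65 and 85.6 CPM in I.P. mice (log2 difference 1.25, standard error 0.31, adjusted p = 0.295). Lss, which closes the rings of lanosterol, was at 31.1 and 51.9 CPM against 10 to 25.6 CPM (log2 difference 1.40, adjusted p = 0.412). Idi1 and Cyp51, an isomerase and a demethylase of the same pathway, were at 66.4 and 52.4 and 67.7 and 50.7 CPM in S.C. mice, against 20.5 to 35.9 and 23.1 to 41.6 CPM in I.P. mice. In all 4 both S.C. mice were above all I.P. mice, and the DMSO mice lay in or near the I.P. range. Abcg1, an LXR target that exports cholesterol, was called lower at 37.1 and 25.9 CPM against 70, 53.8, 108 and 62.2 CPM (log2 difference -1.22, adjusted p = 0.398). Abca1, the other main exporter, was below all I.P. mice in both S.C. mice, at 101 and 126 CPM against 170.1 to 196 CPM, a difference under 2-fold (log2 difference -0.70, adjusted p = 0.481). Npc1, which moves cholesterol out of lysosomes, was lower at 40.8 and 33.6 CPM against 147, 88.3, 83.9 and 87.7 CPM (log2 difference -1.45, standard error 0.34, adjusted p = 0.277). Npc1 belongs to another list, that of lysosomal hydrolases, which had 1 higher and 1 lower call of 41 and a median of 0.02. Sc4mol and Npc1 kept their calls whichever mouse was left out. No call remained for Lss without S.C. mouse 2 (0.98), for Idi1 without S.C. mouse 1 (0.88) or I.P. mouse 1 (0.94), for Cyp51 in 4 of the 6 fits, those without S.C. mouse 1, I.P. mouse 1, I.P. mouse 2 or I.P. mouse 3 (0.82 to 0.99) and for Abcg1 without S.C. mouse 2 (-0.99). Without S.C. mouse 1 the list had 5 higher and 6 lower calls, and without S.C. mouse 2 it had 7 and 1. Scaling by library size only gave 2 higher and 3 lower, so the balance of its calls depends on the scaling.

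Some scavenger receptors and other genes of resident macrophages were lower after S.C. dosing, with 0 of 23 tested genes called higher and 5 lower and a median of -0.43. Cd163, the receptor for haptoglobin-bound hemoglobin and an M2 marker of the study (chromosome 6 from 124304656 to 124330527), was at 11.8 and 6.12 CPM in S.C. mice, 157, 51.6, 41.8 and 67.7 CPM in I.P. mice and 29 and 64.6 CPM in DMSO mice. Both S.C. mice were below all 6 others. The level was 8.84-fold lower than in I.P. mice (log2 difference -3.14, standard error 0.66, adjusted p = 0.268), and over the fits without 1 mouse the log2 difference ran from -3.70 to -2.58. Lyve1, a hyaluronan receptor of tissue macrophages, had 18 and 0 counts in S.C. mice against 171, 279, 159 and 333 in I.P. and 244 and 1422 in DMSO mice (adjusted p = 0.321 in edgeR's test). Marco, a scavenger receptor for bacteria and particles, was at 8.14 and 4.66 CPM against 21.7, 23.1, 36 and 13.8 CPM (log2 difference -1.88, adjusted p = 0.346). Fcna, a ficolin that recognises microbial sugars, was at 51.5 and 34.5 CPM against 126, 128, 58.1 and 108 CPM (log2 difference -1.29, adjusted p = 0.398), and Cbr2, a carbonyl reductase of resident macrophages, at 236 and 86.6 CPM against 267 to 419 CPM (-1.06, and -1.95 without S.C. mouse 1). Mrc1, the mannose receptor CD206, lay below the I.P. mice in both S.C. mice, at 271 and 471 CPM against 477 to 549 CPM, and was not called (log2 difference -0.47, adjusted p = 0.719). The call ended for Fcna without S.C. mouse 2 (-1.03) and for Cbr2 in 3 of the 6 fits, those without S.C. mouse 2, I.P. mouse 2 or I.P. mouse 4 (-1.07 to -0.51). The median of the list was -0.07 without S.C. mouse 1 and -0.77 without S.C. mouse 2.

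Fkbp5, a chaperone of the glucocorticoid receptor and a direct target of it (chromosome 17 from 28399094 to 28517527), was at 4.64 and 9.54 CPM in S.C. mice, 101, 30.1, 37.9 and 71.9 CPM in I.P. mice and 14.9 and 18.9 CPM in DMSO mice. All 4 I.P. mice were above all 4 others, and the difference was 8.48-fold (log2 difference -3.08, standard error 0.63, adjusted p = 0.268). Zbtb16, another glucocorticoid target, had 0 and 1 counts in S.C. mice and 57, 12, 12 and 33 in I.P. mice, with 17 and 9 in DMSO mice, near I.P. mice 2 and 3 (adjusted p = 0.406). Of 26 glucocorticoid and FOXO targets tested, 3 were called lower and 1 higher, with a median of -0.09, and the higher one, Dusp1, is described above. Sgk1, a kinase of the same list, ran the other way at 467 and 829 CPM in S.C. mice against 323, 317, 275 and 436 CPM in I.P. mice, a difference under 2-fold (log2 difference 0.94, adjusted p = 0.426). The ATF4 list of the integrated stress response had 4 lower and 1 higher calls of 28, with a median of -0.40. The higher call, Slc1a5, was at 141 and 56.4 CPM in S.C. mice and 51, 40.6, 32.6 and 56.2 CPM in I.P. mice. Its log2 difference was 1.13 (adjusted p = 0.481 in edgeR's test) and 0.32 without S.C. mouse 1. Trib3, a pseudokinase induced by ATF4, was at 21.7 and 9.03 CPM in S.C., 85.5, 36.5, 32.8 and 74.7 CPM in I.P. and 20.6 and 12.9 CPM in DMSO mice (log2 difference -1.90, adjusted p = 0.394). Chac1, which degrades glutathione, was at 3.5 and 0.218 CPM in S.C., 12.4, 9.91, 8.8 and 13.1 CPM in I.P. and 2.03 and 3.04 CPM in DMSO mice (log2 difference -2.56, adjusted p = 0.498). In both genes each S.C. mouse was below all I.P. mice and the DMSO mice were also below them. Sesn2, a sensor of leucine, was at 18.4 and 8.59 CPM in S.C. mice against 19.6 to 47.1 CPM in I.P. mice. Calls were lost for Trib3 without S.C. mouse 2 (-1.40), for Chac1 without I.P. mouse 1 (-2.50) or I.P. mouse 4 (-2.47) and for Sesn2 in 3 of the 6 fits, those without S.C. mouse 2, I.P. mouse 1 or I.P. mouse 4 (-1.17 to -0.84). Without S.C. mouse 1 Chac1 was at -5.61 and Sesn2 at -1.94, and without S.C. mouse 2 Chac1 was at -1.66.

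The NRF2 list gave 2 lower and 0 higher calls of 24, with a median of -0.02, where 4.64% of all genes were called lower. The 2 calls are described as single genes and not as a shift of the list. Osgin1, an oxidative stress gene, was at 12.5 and 14.7 CPM in S.C. mice, 57.1, 29.4, 24.3 and 36.5 CPM in I.P. mice and 12 and 13.1 CPM in DMSO mice (log2 difference -1.43, standard error 0.43, adjusted p = 0.394), so the I.P. mice alone were high. Hmox1, the heme oxygenase, was at 1420 and 989 CPM in S.C. mice and 3208, 2816, 4157 and 1205 CPM in I.P. mice (log2 difference -1.24, adjusted p = 0.508), the groups overlapped, and the DMSO mice were at 1077 and 4316 CPM. No call was left for Hmox1 without S.C. mouse 2 (-1.01) or I.P. mouse 1 (-1.18).

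Interferon genes did not move as 1 group. Of 34 type I interferon-induced genes 0 were called higher and 3 lower, with a median of -0.05. Over all genes tested 4.64% were called lower, and whether the list departs from that share was not tested. Mx2, an antiviral GTPase, had 0 and 2 counts in S.C. mice and 23, 24, 101 and 161 in I.P. mice (adjusted p = 0.346). Parp14, an ADP-ribosyltransferase, was at 5.45 and 9.39 CPM against 23.5, 10.3, 25.6 and 21.9 CPM (log2 difference -1.45, adjusted p = 0.484), and Parp9 at 13.3 and 10.9 CPM against 18.5, 20.6, 41.5 and 32.6 CPM (log2 difference -1.22, adjusted p = 0.492). The criterion was no longer met for Parp14 without S.C. mouse 1 (-1.12) or I.P. mouse 3 (-1.35) and for Parp9 in 3 of the 6 fits, those without S.C. mouse 2, I.P. mouse 3 or I.P. mouse 4 (-1.15 to -1.02). The interferon-gamma list had a median of 1.02 with 2 of 23 genes called higher, Gbp8 and Tgtp2, GTPases of families whose near-identical members may share reads. Gbp8 was at 45 and 55.3 CPM in S.C. mice against 16.9, 10.6, 29.6 and 8.17 CPM in I.P. mice (log2 difference 1.62, adjusted p = 0.398). Tgtp2 was at 156 and 141 CPM against 11.7, 13, 102 and 21.5 CPM, and I.P. mouse 3, the I.P. mouse with the highest Cd74, was the highest for both. Without I.P. mouse 3 the list had 12 higher calls and Tgtp2 was at 3.23. Tgtp2 in 5 of the 6 fits, those without S.C. mouse 1, S.C. mouse 2, I.P. mouse 1, I.P. mouse 2 or I.P. mouse 4 (1.71 to 2.07) no longer met the criterion. MHC class I genes, which interferons also induce, gave 0 calls of 18 and a median of 0.36.

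**Figure D5:**
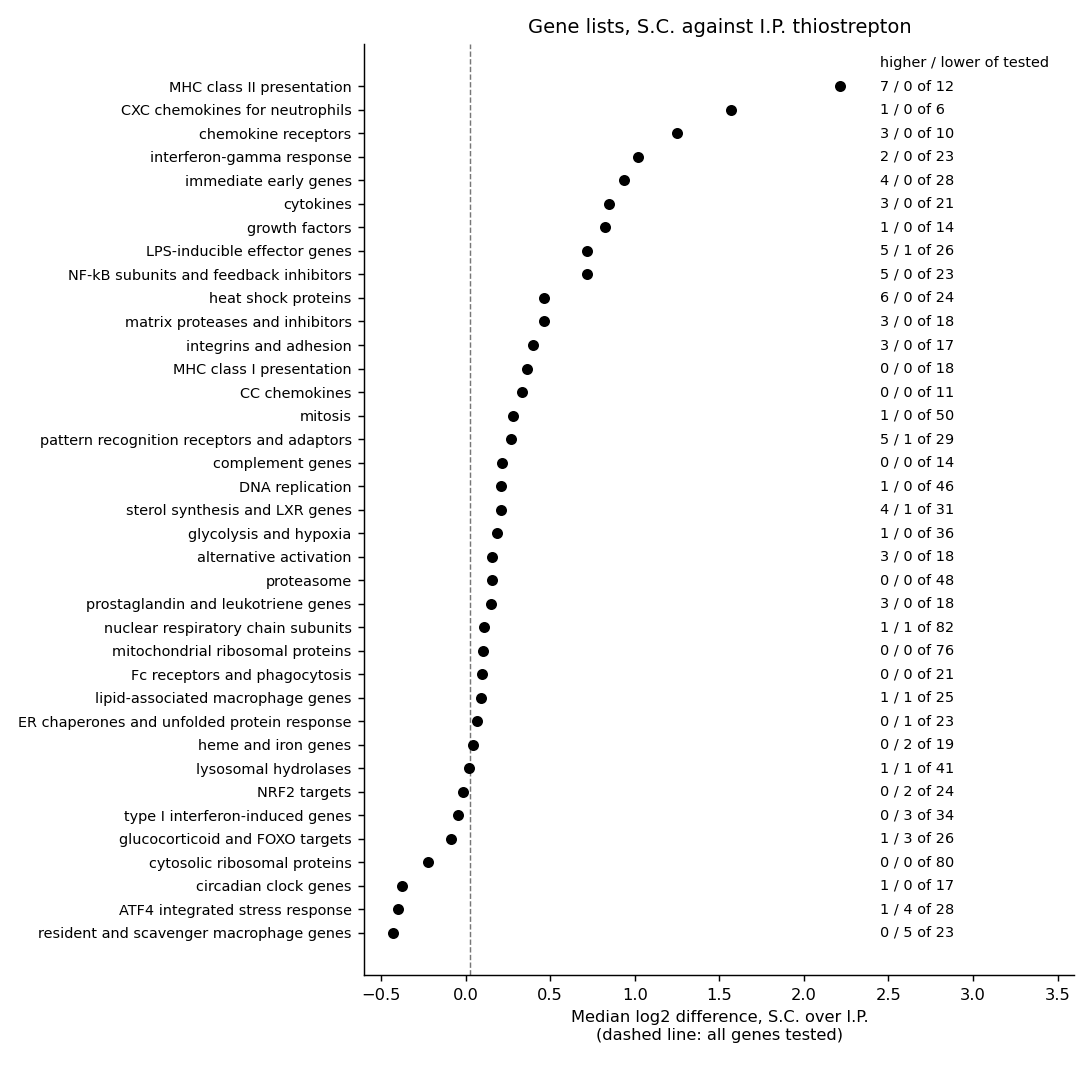
Median log2 difference, S.C. over I.P., of the tested genes of each of 37 pathway lists (points) beside the median of all genes tested (dashed line), with the number of genes called higher and lower of those tested on the right. MHC class II lies farthest to the right with 7 of 12 called higher, and resident and scavenger macrophage genes lie farthest to the left with 5 of 23 called lower.

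Some basic cell functions gave few or no calls. Of 50 mitosis and 46 DNA replication genes 1 each was called higher and 0 lower, where 2.41% of all genes were called higher. The medians were 0.28 and 0.21. For these 2 lists the mean log2 CPM was lowest in I.P. mouse 1, at 3.61 and 3.70, against 4.84 to 5.44 and 4.93 to 5.37 in I.P. mice 2 to 4 and 4.90 to 5.37 and 4.97 to 5.06 in the S.C. mice. There were 0 calls among 80 cytosolic and 76 mitochondrial ribosomal protein genes, 21 genes of Fc receptors and phagocytosis and 14 complement genes. Of the 80 cytosolic ribosomal protein genes, 73 had a negative and 7 a positive log2 difference, with a median of -0.22. That median was -0.60 without S.C. mouse 1 and 0.07 without S.C. mouse 2. Vegfa was the 1 call of 14 growth factors. Aldoc, an aldolase of glycolysis, was the 1 call of 36 genes of glycolysis and hypoxia, at 43.5 and 22.8 CPM against 8.03 to 13.5 CPM (log2 difference 1.56, adjusted p = 0.315, and 1.02 without S.C. mouse 1).

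Some genes were nearly absent from both S.C. libraries. Mlst8, a subunit of both mTOR complexes (chromosome 17 from 24473551 to 24479078), had 1 and 5 counts in S.C. mice, 347, 275, 270 and 485 in I.P. mice and 243 and 271 in DMSO mice (log2 difference -6.55, standard error 0.78, adjusted p = 0.205). The gene 2610301B20Rik (chromosome 4 from 10874498 to 10899425) had 1 and 5 counts in S.C. mice, 209, 249, 247 and 425 in I.P. mice and 285 and 268 in DMSO mice (log2 difference -6.25, adjusted p = 0.205). In both genes the I.P. and DMSO mice shared a range from which the S.C. mice were far removed. There were 5 genes with fewer than 8 counts in both S.C. mice and at least 5 CPM in all 4 I.P. mice, these 2 and, named after their values were seen, Zfp433, Ctu1 and Gltscr1l. There were 2 of the opposite kind, Gzma and Il2rb. At least 1 S.C. mouse was under 8 counts in 115 genes with 5 CPM in all I.P. mice, against 34 genes the other way round. These 2 counts are not alike, since 1 group has 2 mice and the other 4. The S.C. libraries also detected fewer genes in all, 12766 and 13083 against 13412 to 14622 in the other libraries. Whether the low counts go with the route or with these libraries was not tested. Among the named genes with counts in both S.C. mice, Tbl1x, a subunit of the NCoR corepressor, was at 8.34 and 9.25 CPM against 28.2, 38.9, 50 and 51 CPM (log2 difference -2.26, adjusted p = 0.205). Sh3bp2, an adaptor of SYK and SRC signaling, was at 14 and 30.4 CPM against 100.2, 75.2, 77.9 and 90.5 CPM (log2 difference -1.95, adjusted p = 0.252). Cdk16, a cyclin-dependent kinase, was at 7.74 and 12.6 CPM against 35.4, 42.2, 30.8 and 47.5 CPM, and Nol6, a nucleolar protein of ribosome assembly, at 4.37 and 4.44 CPM against 20.3, 17.6, 18.7 and 26.2 CPM. Nup153, of the nuclear pore, was at 4.84 and 1.09 CPM against 28.2, 16.2, 25.1 and 16.9 CPM (-2.85, and -4.30 without S.C. mouse 1). Mier2, I830012O16Rik and Smcr8 were 12.6, 9.48 and 7.09 times lower, and Nlrc3 had 1 and 26 counts in S.C. mice against 223, 312, 275 and 410 in I.P. mice. In all of these genes the DMSO mice lay above both S.C. mice.

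Of 17 neutrophil markers tested 7 were called higher, 0 lower and 10 not called, although the gate excluded Gr-1+ cells. With 8 counts required in every mouse, 9 were tested and 3 called higher, with a median log2 difference of 1.11 where the 17 had 2.10. S100a9, a calcium-binding protein of neutrophils and monocytes, was at 15.7 and 60.2 CPM in S.C. mice and 8.09, 1.76, 7.67 and 1.81 CPM in I.P. mice (log2 difference 2.97, adjusted p = 0.315). Ngp, a neutrophil granule protein, had 66 and 828 counts against 34, 0, 1 and 6, and Ltf, lactoferrin, had 24 and 389 against 14, 0, 3 and 1. S.C. mouse 2 carried most of these counts. Leaving out 1 mouse ended the call for S100a9 without S.C. mouse 2 (1.70), for Ngp without S.C. mouse 2 (2.78) and for Ltf without S.C. mouse 2 (2.50), and the list had 1 call without that mouse. The summed level of 20 neutrophil markers was 484 and 752 CPM in S.C. mice, 275 to 362 CPM in I.P. mice and 289 to 354 CPM in DMSO mice, with 1 to 8 of them at 0.

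Of 14 markers of cytotoxic lymphocytes and T cells tested 5 were called higher and 0 lower. With 8 counts required in every mouse, 2 were tested and 1 was called higher. Most of the 14 thus had fewer counts in some mouse, and a marker near 0 in I.P. mice can hardly be called lower. Gzma, granzyme A, had 222 and 95 counts in S.C. mice, 0, 0, 0 and 6 in I.P. mice and 2 and 0 in DMSO mice (adjusted p = 0.268). Il2rb, the interleukin 2 receptor beta chain, had 145 and 81 counts against 1, 0, 4 and 0 (adjusted p = 0.252), and Nkg7, a protein of cytotoxic granules, had 124 and 157 against 1, 0, 33 and 7 (adjusted p = 0.458). These calls held in each fit without 1 mouse, and for all 3 genes both S.C. mice were above all I.P. mice. The 23 markers summed to 134 and 58.9 CPM in S.C. mice and 13.9 to 50.2 CPM in I.P. mice, with 2 to 14 of them at 0. These 3 genes were named for the smallest P of the list, and Gzma and Il2rb were near 0 in the I.P. mice. Their kept calls therefore say nothing about the list as a whole. The median log2 difference of the list was 2.13, but -0.48 without S.C. mouse 1 and 3.35 without S.C. mouse 2. Melanocyte markers summed to 3267 and 784 CPM in S.C. mice and 574, 1099, 512 and 1850 CPM in I.P. mice, S.C. mouse 1 being the highest, with 1 call in each direction of 14, and S.C. mouse 2 lay below I.P. mice 2 and 4. Of 6 fibroblast and endothelial markers tested 0 were called, with a median of -0.40. Erythroid markers summed to 584 and 67.6 CPM in S.C. mice and 3.7 to 89.9 CPM in I.P. mice, with 2 of 6 called higher. With 8 counts required in every mouse, 0 erythroid markers were left to test. The TAM markers summed to 38680 and 41860 CPM in S.C. mice and 35120, 32900, 30480 and 27930 CPM in I.P. mice. Xist, expressed from an inactive X chromosome and so not from male cells, was at 6.33 CPM in S.C. mouse 2 and at 0.47 to 1.02 CPM in the other 7 mice. What part these other cells have in the calls between routes was not tested.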

How the data were processed

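Whole-number counts of 8 TAM libraries for 23413 gene symbols were used as the authors deposited them, without normalization. The study's methods name bowtie2 and RSEM and the submitters' processing notes TopHat2 and edgeR, with the mm10 build, and whole numbers may be rounded RSEM estimates. The annotation and strand setting are not given in the sources used here. Mice were grouped by their labels. A P value sets the difference between the groups against the spread between these mice within a group. That spread is estimated with information shared over genes.

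The 6 thiostrepton libraries were fitted in R 4.3.3 with edgeR 4.0.16 (filterByExpr, minimum count 10 and minimum total count 15, TMM, estimateDisp, glmQLFit and glmQLFTest, two-sided), with Benjamini-Hochberg adjustment over the 12206 genes tested. The fit was tested on simulated data. The standard error is the log2 difference divided by the square root of F. DESeq2 1.42.0 was an alternative. Positions are from GENCODE vM21 and promoters from RefSeq on GRCm38.p6, the assembly of mm10.

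The comparison, gene lists and tests were chosen with earlier results of these data known. Genes were named by a rule, in each direction the 8 largest differences and the 8 smallest P values among calls with no overlap and at least 10 CPM, the 3 smallest P of each list, and 17 genes named by the study. Other list members were named after their values were seen. Alternatives were other filters, scalings and tests, all 3 groups in 1 fit, a replicate block and leaving out each mouse. Some genes that the rule names are not reported here.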

Additional observations from a re-analysis of the deposited data

Results flagged for a closer look

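Among the 4 I.P. mice, the gap of the highest or lowest mouse to its nearest neighbor was compared with Dixon's 95% critical value for 109 named genes, on log2(CPM + 1), and 49 lists, as mean log2 CPM. In 16 of these 158 sets the gap exceeded it. Chance gives about 1 in 20 for sets chosen without regard to their values. Many of the genes were named by values of these same mice, and genes of 1 list are not independent. The count of 16 is therefore not to be read against that share. For Cd79a (17, 0, 0 and 0 counts in I.P. mice 1 to 4) and Gzma (0, 0, 0 and 6) the flag only restates that all but 1 mouse had 0 counts. I.P. mouse 1 stood above the other I.P. mice for Cxcl1 (154 CPM), Cxcl2 (608 CPM), Osm (109 CPM), Zfp36 (463 CPM), Nlrp3 (13.7 CPM), Npc1 (147 CPM) and Cd79a (1.08 CPM), and below them for Foxm1 (7.33 CPM) and the endoplasmic reticulum chaperones (7.10). Of these, Osm, Zfp36, Nlrp3, Npc1 and Cd79a were called in the comparison of routes. I.P. mouse 2 was apart for Ccl5 (2.43 CPM, the lowest) and the NRF2 targets (7.62, the highest). I.P. mouse 3 was lowest for Mfge8 (7.90 CPM) and highest for the TAM markers (9.90). I.P. mouse 4 was highest for Cyp51 (41.6 CPM), Gzma (0.35 CPM) and the sterol synthesis and LXR genes (4.72).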

How the results depend on the processing

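Of 109 named genes, 108 kept direction and side of the criterion under DESeq2, 109 under RLE factors, the likelihood ratio test, no filter or a filter of 1 CPM in 2 mice, 107 with all 3 groups in 1 fit, and 103 with library size only, while 87 of 89 did so with 8 counts in every mouse. Fewer did so with 1 mouse left out, from 71 without S.C. mouse 2, where 34 lost their call and 3 turned, to 95 without I.P. mouse 4. Of all calls, 25 higher and 39 lower held in each of the 15 alternatives. Higher calls numbered 507 without a filter and lower calls 258 with 8 counts in every mouse. Adjusted calls numbered 265 by the likelihood ratio test, 234 by DESeq2 and 2 with all 3 groups. With 1 mouse left out, higher calls ranged from 194 to 727, lower calls from 407 to 1426 and adjusted calls from 0 to 138. Library size only gave 230 higher and 641 lower calls and moved the median of all genes from 0.02 to -0.08. With 1 mouse left out, log2 differences ran from -0.027 to 1.05 for Tnf, -0.43 to 1.04 for Arg1, -1.46 to 2.24 for Tgfb1, -0.48 to 0.82 for Ccl5, -1.44 to 0.40 for Ccl24 and -0.85 to 0.073 for Foxm1. The direction turned for Tnf (-0.027) and Ccl5 (-0.03) without I.P. mouse 2, Ccl24 (0.40) without I.P. mouse 1, Tgfb1 (-1.46) and Ccl5 (-0.48) without S.C. mouse 1, and Arg1 (-0.43), Ccl24 (0.22) and Foxm1 (0.073) without S.C. mouse 2. None of these is called in the comparison, and the cause was not tested.

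A replicate block on the shared label numbers gave 191 higher and 200 lower calls and 1 adjusted call, with 251 of the 860 calls shared, and 30 of the 109 named genes lost their call. Deviations from the group means correlated at 0.169 between S.C. and I.P. mice 1 and at 0.0192 between mice 2, but with 2 S.C. mice their deviations mirror each other and these values are not separate checks. The labels name no shared litter, batch or day, so the numbers were not taken as pairs.

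With 2 S.C. mice, each value rests on either mouse. A level below 8 counts in an S.C. mouse limits 369 of the lower calls, and one in an I.P. mouse limits 76 of the higher calls.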
